A study of Mus musculus with 18 samples.

Results

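The 6 genes described here encode the subunits of the IL-6 and IL-12 cytokine family: Il6, Il12a, Il12b, Il23a, Il27 and Ebi3. They were chosen by symbol, and all 6 were found among the 23420 genes of each of 18 RNA-seq libraries. RNA came from splenic B cells that were purified with beads by negative selection from lupus-prone MRL/lpr mice (Fas lpr) aged 5 to 7 weeks and cultured for 4 h. There were 6 groups of 3 libraries. Tlr9het cells (Tlr9+/- Tlr7-/-) and Tlr997 cells (Tlr997 Tlr7-/-), all from female mice, were left unstimulated or were given the TLR9 agonist CpG at 10 µg/ml. Tlr779 cells (Tlr779 Tlr9-/-), from male mice, were left unstimulated or were given the TLR7 agonist CL097 at 5 µg/ml. TLR997 is a chimeric receptor with the ligand-binding and transmembrane parts of TLR9 and the signaling (TIR) domain of TLR7, expressed from the Tlr9 locus, and TLR779 is the reverse chimera, expressed from the Tlr7 locus. The sample titles give the control of the CpG experiment as Tlr9+/- whereas the treatment description gives it as Tlr9-/-, and the titles were followed. The Tlr7WT control of the CL097 experiment was not analysed here. Sex, genotype and agonist differed together between the CpG and the CL097 experiment, so that their parts cannot be told apart and no test was run between the 2.

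IL-6 and the subunits p35, p19 and p28 are helical cytokines, and p40 and EBI3 resemble soluble receptor chains that bind them. Most of the family act as such pairs. IL-6, encoded by Il6, acts alone through the IL-6 receptor and the shared chain gp130, and is a classical product of TLR-stimulated B cells and macrophages. IL-12 pairs the p35 subunit (Il12a) with p40 (Il12b), and IL-23 pairs p19 (Il23a) with the same p40. IL-27 pairs p28 (Il27) with EBI3 (Ebi3), and IL-35 pairs p35 with EBI3. RNA levels do not measure the secreted cytokines.

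The genes lie on 6 chromosomes of GRCm38 (mm10). Il6 spans chr5:30013114-30019975, Il12a chr3:68690644-68698550, Il12b chr11:44400063-44414677, Il23a chr10:128296140-128298084, Il27 chr7:126589009-126595035 and Ebi3 chr17:55952623-55957022. The table of RefSeq promoters (GRCm38.p6) held 5 windows for 4 of the 6 genes (Il6, Il12b, Ebi3 and Il12a). The 250 bases before the start of Il6, Il12b and Ebi3 are shown because these 3 genes rose with every agonist, and those before the first start of Il12a are shown because it did not. All are on the plus strand and read 5′ to 3′, and capitals mark matches to the motifs described next.

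Il6, chr5:30012864-30013113: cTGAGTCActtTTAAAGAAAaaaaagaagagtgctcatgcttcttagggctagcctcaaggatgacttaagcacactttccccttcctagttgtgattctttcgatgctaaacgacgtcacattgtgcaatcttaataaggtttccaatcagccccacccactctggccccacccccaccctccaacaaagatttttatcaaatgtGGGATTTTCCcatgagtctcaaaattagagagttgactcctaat

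Il12b, chr11:44399813-44400062: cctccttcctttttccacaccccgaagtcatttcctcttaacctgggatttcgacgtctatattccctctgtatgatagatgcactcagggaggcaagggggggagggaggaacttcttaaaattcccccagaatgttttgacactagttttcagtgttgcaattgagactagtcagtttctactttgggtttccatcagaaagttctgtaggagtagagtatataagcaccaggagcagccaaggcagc

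Ebi3, chr17:55952373-55952622: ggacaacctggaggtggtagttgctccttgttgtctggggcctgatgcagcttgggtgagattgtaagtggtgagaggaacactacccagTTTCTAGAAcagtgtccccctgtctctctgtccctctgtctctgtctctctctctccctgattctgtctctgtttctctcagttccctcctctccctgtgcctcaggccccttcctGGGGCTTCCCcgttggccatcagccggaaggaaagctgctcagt

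Il12a, chr3:68690394-68690643: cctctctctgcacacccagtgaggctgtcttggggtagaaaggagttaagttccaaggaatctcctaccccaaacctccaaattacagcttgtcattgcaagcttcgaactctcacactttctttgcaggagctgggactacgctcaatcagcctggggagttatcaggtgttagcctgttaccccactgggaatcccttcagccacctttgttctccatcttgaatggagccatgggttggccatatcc

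Both strands of each window were searched for the NF-kB motif, the AP-1 motif TGANTCA and the interferon regulatory factor motif GAAANNGAA. The TATA box TATAAA and the pattern TTNCNNNAA were searched for as well, and N is any base. This last pattern is not the usual C/EBP motif, so C/EBP sites were not assessed. The Il6 window held an NF-kB match, GGGATTTTCC, at bases -44 to -35 from the start, and an AP-1 match, TGAGTCA, at -249 to -243. It also held TTNCNNNAA on the minus strand at -239 to -231. The Ebi3 window held an NF-kB match, GGGGCTTCCC, at the same distance, -44 to -35, and a match to TTNCNNNAA at -160 to -152. The windows of Il12b and Il12a, the second Il12a start included, held none of the 5 in these letters. Over 32851 promoter windows of the same length, 3.9% held the NF-kB motif, 6.75% AP-1 and 32.9% TTNCNNNAA. The interferon regulatory factor motif was in 7.13% and the TATA box in 12.4%. These matches describe the letters only.

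Values are the deposited log2 CPM, read counts scaled to the library total, on a log2 scale. A count of 3 corresponded to -2.24 log2 CPM on average over libraries, and values at or below it are called at the floor. In each comparison a gene was called with limma where the adjusted p (Benjamini-Hochberg) was under 0.05 and the log2 fold change was over 0.5 in size, across all genes that passed a filter of more than 0 log2 CPM in at least 3 libraries. Of the 6 genes, Il6, Il12a, Il12b and Ebi3 passed the filter in both experiments and Il23a and Il27 passed in neither. Il12b passed in the Tlr779 libraries only through its CL097 group, so that its place in that test carries no weight of its own. Il6, at 0.37, 0.71 and -0.70 log2 CPM in unstimulated Tlr779 libraries, also needed a CL097 library to pass there. Its place in that test carries no weight of its own either. Depth per library was not given with the values. Replicates of a group had a Pearson r of 0.976 or more over 11676 genes, except that unstimulated Tlr997 replicate 3 stood apart, with r of 0.944 and 0.954 to the other 2. For the members, the unstimulated genotype difference, the difference of responses and the Tlr997 responses are given with and without it. The genotype difference with CpG holds it only through the shared variance, and no separate value without it is given there. Tlr7 lay at 2.68 to 4.28 log2 CPM in Tlr9het and at 4.81 to 5.36 in Tlr997 libraries, all Tlr7-/-, and at 6.61 to 7.82 in Tlr779 libraries. Tlr9 lay at 6.93 to 7.47 in the Tlr9-/- libraries, so that gene-level counts did not show loss of Tlr9. The Tlr997 allele carries the TIR sequence of Tlr7 and the Tlr779 allele that of Tlr9, and the part of these sequences in the counts was not tested. The 6 defining B cell markers were present in all libraries, but their summed level fell with stimulation, from a median of 6395 to 1676 CPM in Tlr9het, from 6118 to 2941 in Tlr997 and from 6246 to 2857 in Tlr779 cells, with 5, 3 and 4 of the 6 called lower. The part of this fall in the responses was not tested.

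**Figure D1:**
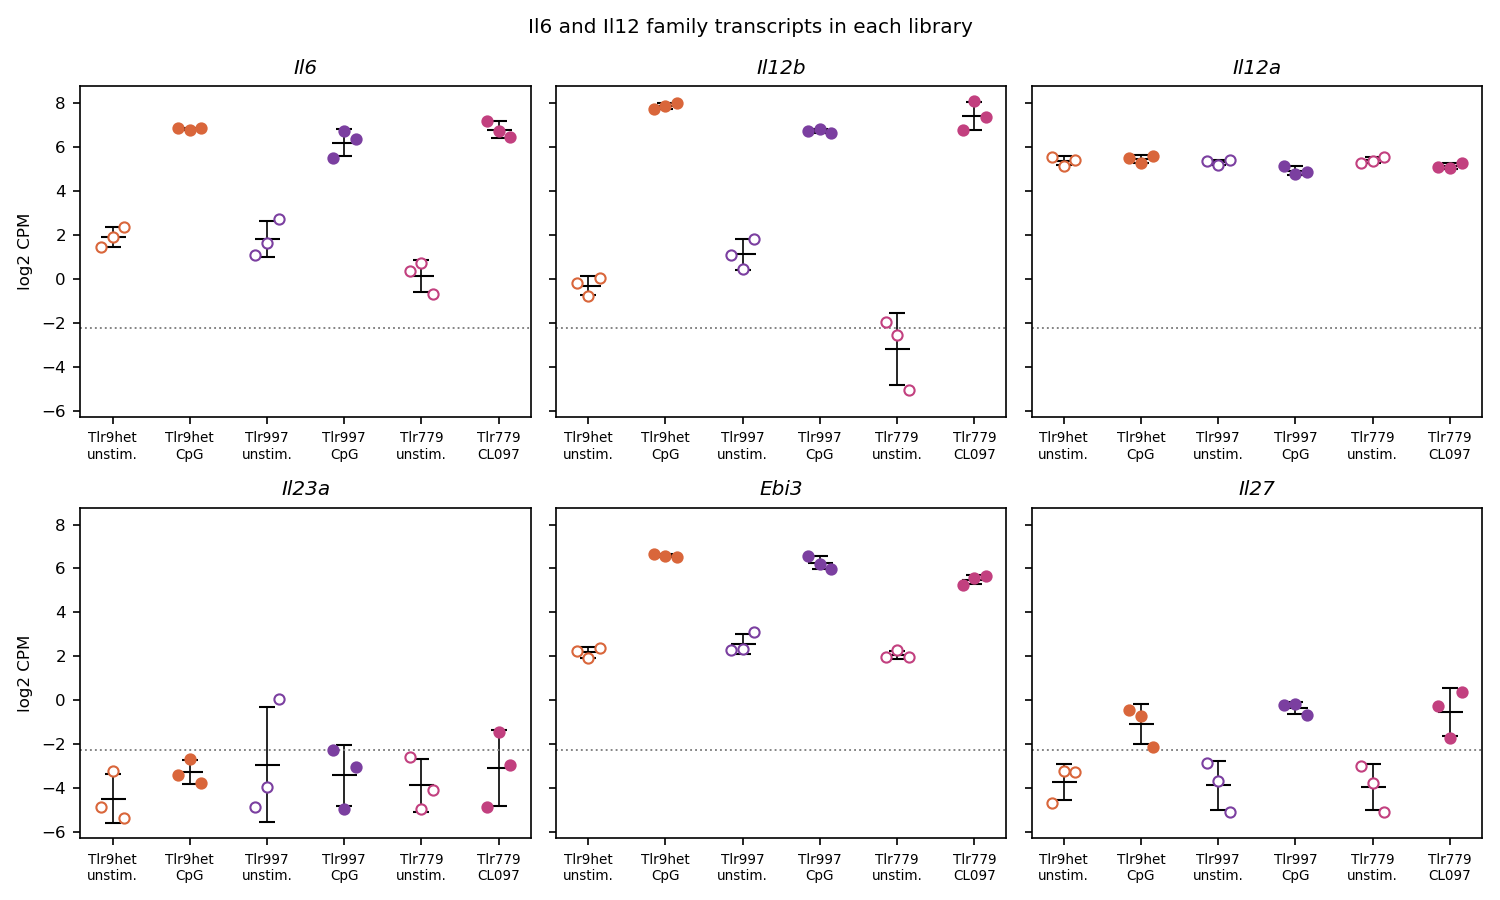
Log2 CPM of the 6 cytokine genes in each of the 18 libraries (points; open, unstimulated; filled, with CpG or CL097), with the mean and SD of each group of 3 (bars) and the floor of 3 counts (dotted line). Il6, Il12b and Ebi3 lay higher in every stimulated library than in the unstimulated libraries of the same genotype, Il12a stayed between 4.77 and 5.58, and Il23a was at the floor in 16 of 18 libraries.

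Il12b, which encodes the p40 subunit shared by IL-12 and IL-23, rose in all 3 genotypes and had the largest log2 fold change of the 4 tested members in each. In unstimulated Tlr9het cells Il12b was at -0.18, -0.77 and 0.04 log2 CPM, and with CpG it was at 7.73, 7.87 and 8.01. In Tlr997 cells it was at 1.10, 0.43 and 1.81 without and at 6.73, 6.80 and 6.65 with CpG. In Tlr779 cells it was at -1.96, -2.53 and -5.03 without and at 6.79, 8.09 and 7.37 with CL097. Stimulated and unstimulated libraries thus did not overlap in any genotype, and 2 of the 3 unstimulated Tlr779 libraries were at the floor. The log2 fold change was 8.18 (SE 0.28, limma adjusted p = 2.4e-11) in Tlr9het cells and 5.61 (SE 0.28, adjusted p = 8.9e-10) in Tlr997 cells, ranks 3 and 10 from the top of 11494 genes. In Tlr779 cells it was 10.59 (SE 0.74, adjusted p = 1.4e-05), the highest of 11082 genes. This last value depends on unstimulated values below the floor. The smallest gap between same-numbered Tlr779 libraries was 8.75, and the log2 fold change without unstimulated replicate 3 was 9.66.

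Il6 rose in all 3 genotypes as well. It was at 1.47, 1.89 and 2.34 log2 CPM in unstimulated Tlr9het cells and at 6.87, 6.77 and 6.86 with CpG. In Tlr997 cells it was at 1.07, 1.65 and 2.71 without and at 5.51, 6.71 and 6.38 with CpG. In Tlr779 cells it was at 0.37, 0.71 and -0.70 without and at 7.19, 6.72 and 6.45 with CL097. No stimulated library overlapped an unstimulated one. Il6 entered the Tlr779 test only with a CL097 library, so its call and rank there carry no weight. The log2 fold change was 4.93 (SE 0.37, adjusted p = 4.5e-08) in Tlr9het, 4.39 (SE 0.37, adjusted p = 1.7e-07) in Tlr997 and 6.66 (SE 0.36, adjusted p = 5.9e-06) in Tlr779 cells, ranks 24, 37 and 5 from the top.

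Ebi3, which encodes the partner of IL-27 p28 and of IL-35 p35, rose in all 3 genotypes too. It was at 2.23, 1.91 and 2.40 log2 CPM in unstimulated Tlr9het cells and at 6.67, 6.56 and 6.53 with CpG. In Tlr997 cells it was at 2.31, 2.32 and 3.11 without and at 6.59, 6.22 and 5.99 with CpG. In Tlr779 cells it was at 1.97, 2.28 and 1.98 without and at 5.27, 5.57 and 5.66 with CL097. Each stimulated group lay above its unstimulated group, and the CL097 group lay below both CpG groups. The log2 fold change was 4.40 (SE 0.21, adjusted p = 4.3e-10) in Tlr9het, 3.68 (SE 0.21, adjusted p = 3.1e-09) in Tlr997 and 3.43 (SE 0.15, adjusted p = 3.6e-06) in Tlr779 cells.

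Il12a, which encodes the p35 subunit of IL-12 and IL-35, did not rise. Its 18 values lay between 4.77 and 5.58 log2 CPM. With CpG the change was 0.08 (SE 0.13, adjusted p = 0.59) in Tlr9het cells and -0.38 (SE 0.13, adjusted p = 0.017) in Tlr997 cells, where it stayed under the fold threshold. With CL097 it was -0.28 (SE 0.11, adjusted p = 0.052) in Tlr779 cells. The 95% confidence intervals of the 3 changes, -0.20 to 0.36, -0.66 to -0.11 and -0.52 to -0.03, leave out a rise of 0.5. Without unstimulated Tlr997 replicate 3, the response in Tlr997 cells was 5.96 for Il12b, 4.84 for Il6, 3.95 for Ebi3 and -0.33 for Il12a, still under the fold threshold. Unlike its partner Il12b, Il12a was at a high level before stimulation.

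The count of members called higher was 3 of the 4 tested in each CpG response, and none was called lower. With CL097 Ebi3 was called higher, and Il12b and Il6 are set apart because of the filter, so nothing is read from a count there. Over all genes tested, 29.7% were called higher and 28.2% lower with CpG in Tlr9het cells, 29.6% and 26% with CpG in Tlr997 cells, and 22.7% and 23.6% with CL097 in Tlr779 cells. The median log2 fold change of the 4 members was 4.67 in Tlr9het and 4.04 in Tlr997 cells, against 0.04 and 0.07 for all genes tested.

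**Figure D2:**
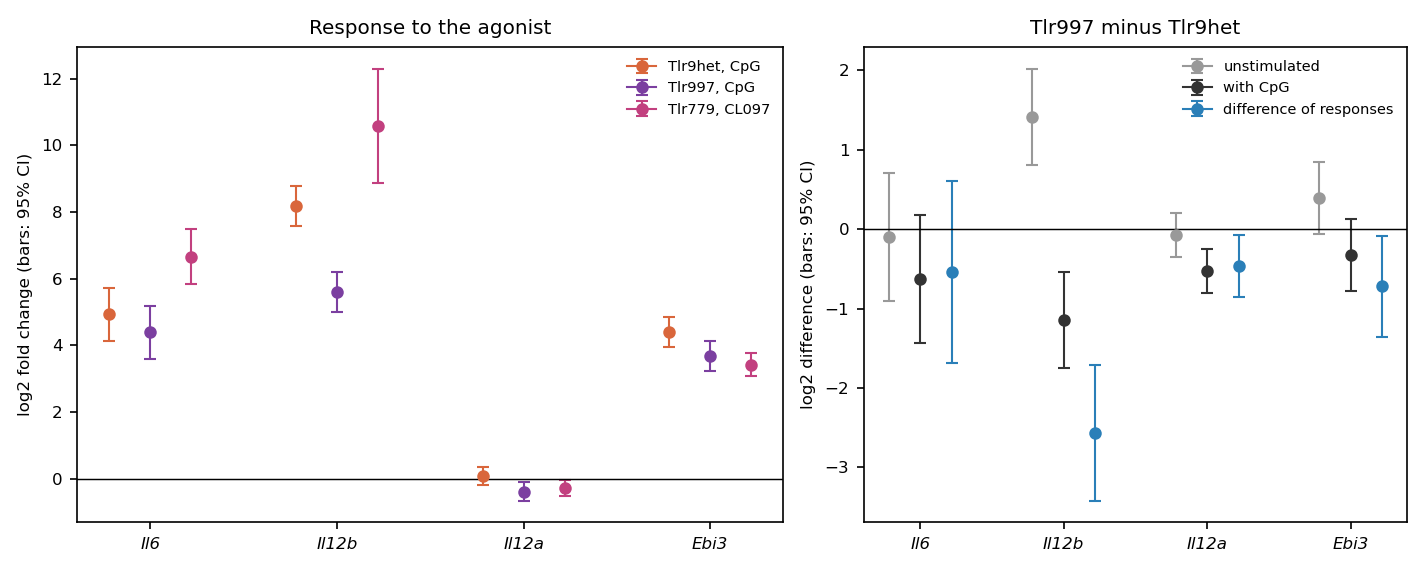
Log2 fold changes of the 4 tested members with 95% confidence intervals from limma. The left panel shows stimulated minus unstimulated libraries in each genotype, where Il12b reached 8.18, 5.61 and 10.59, and the right panel shows Tlr997 minus Tlr9het without CpG, with CpG, and for the difference of the CpG responses, where the interval of Il12b lay below 0 with CpG and for the difference.

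Il27, which encodes the p28 subunit of IL-27, appeared at a low level after stimulation. It was at -4.65, -3.21 and -3.26 log2 CPM in unstimulated and at -0.44, -0.70 and -2.12 in CpG-treated Tlr9het cells. In Tlr997 cells it was at -2.87, -3.65 and -5.06 without and at -0.22, -0.18 and -0.66 with CpG. In Tlr779 cells it was at -2.98, -3.77 and -5.06 without and at -0.25, -1.73 and 0.37 with CL097. All 9 unstimulated libraries were at the floor and all 9 stimulated ones were above it. Against that floor, the average over the group was at least 2.23-fold higher with CpG in Tlr9het, at least 3.71-fold higher in Tlr997 and at least 3.27-fold higher with CL097 in Tlr779 cells. The exact two-sided permutation p was 0.1 in each case, the smallest that 3 against 3 libraries allow. Without the filter on low values limma gave adjusted p = 0.013, 0.0027 and 0.046. Reads on Il27 may also belong to Apobr, which overlaps it and lay between 0.45 and 2.26 log2 CPM.

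Il23a, which encodes the p19 subunit of IL-23, was at the floor in 16 of 18 libraries. The exceptions were unstimulated Tlr997 replicate 3, at 0.05 log2 CPM, and Tlr779 with CL097 replicate 2, at -1.45. Stimulated and unstimulated libraries overlapped in each genotype, and exact permutation p-values were 0.3 in Tlr9het, 0.8 in Tlr997 and 0.6 in Tlr779 cells. No change was detectable at these levels.

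Levels were next compared between genes per length, as log2 CPM per kb of exon, because subunits act in pairs. Before stimulation Il12a was the highest member in all 3 genotypes, at 4.92 per kb in Tlr9het, 4.85 in Tlr997 and 4.95 in Tlr779 cells, followed by Ebi3 at 1.97, 2.37 and 1.87. In unstimulated Tlr9het cells Il6 followed at 0.62 and Il12b at -1.28. After stimulation Il12b rose from far below its partner to above it. Il12b minus Il12a per kb changed from -6.20 to 1.90 in Tlr9het, from -4.71 to 1.28 in Tlr997 and from -9.10 to 1.77 in Tlr779 cells. With CpG the order per kb was Il12b, Ebi3, Il6 and Il12a in Tlr9het cells, at 6.90, 6.38, 5.55 and 5.00. In Tlr997 cells Ebi3 came first at 6.06, and Il12b followed at 5.75. With CL097 Il12b came first at 6.44, and Il6 and Ebi3 followed at 5.51 and 5.29. Il6 has a long annotated exon span, and with the longest RefSeq transcript as its length its level rose by 1.09 in every library, which turned the sign of Il12b minus Il6 from 0.83 to -0.18 in Tlr997 cells with CpG and from 0.93 to -0.08 in Tlr779 cells with CL097. It also turned Il6 minus Ebi3 from -0.83 to 0.26 in Tlr9het cells with CpG, so the order of these genes depends on the length used.

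**Figure D3:**
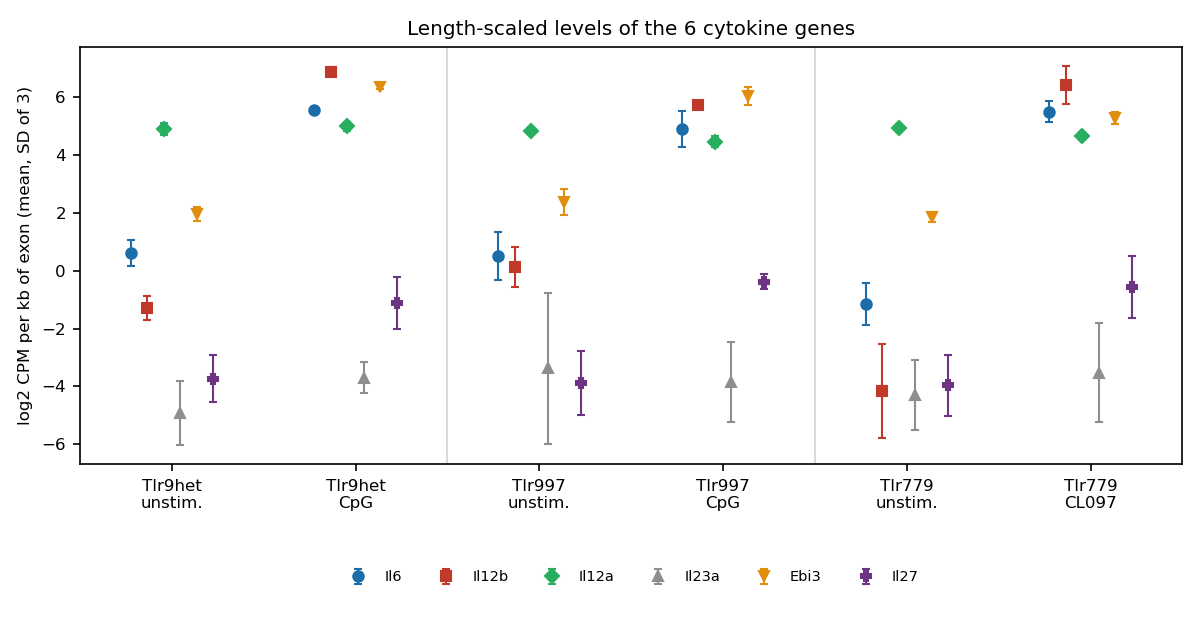
Mean log2 CPM per kb of exon of the 6 genes in each group (SD of 3 libraries as bars). Il12a leads in the 3 unstimulated groups, and Il12b, Ebi3 and Il6 all lie above it in the 3 stimulated groups.

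The difference between Tlr997 and Tlr9het cells, whose CpG receptors have different TIR domains, was tested next for cytokine RNA. Their Tlr9 levels differed too. Without CpG Tlr9 was at 7.276 to 7.483 log2 CPM in Tlr9het and at 7.015 to 7.06 in Tlr997 libraries. With CpG it was at 7.932 to 8.077 and at 7.181 to 7.555. The paper reports equal amounts of TLR9 protein in B cells of these genotypes. The part of the Tlr9 level in the results was not tested. With CpG, Il12b was lower in Tlr997 than in Tlr9het cells, by 1.15 on the log2 scale (SE 0.28, adjusted p = 0.030), and the highest Tlr997 library (6.80) lay below the lowest Tlr9het library (7.73). Il12a was lower as well, by 0.53 (SE 0.13, adjusted p = 0.029), with 5.14, 4.77 and 4.84 log2 CPM in Tlr997 against 5.51, 5.26 and 5.58 in Tlr9het libraries. Il6 differed by -0.63 (SE 0.37, adjusted p = 0.41), its highest Tlr997 library (6.71) lying just below its lowest Tlr9het library (6.77), and Ebi3 by -0.32 (SE 0.21, adjusted p = 0.46). The 95% intervals, -1.44 to 0.18 for Il6 and -0.78 to 0.13 for Ebi3, do not leave out a reduction by 0.5. The count called lower was 2 of 4 members, against 1.47% of all genes tested, and none was called higher, against 1.25%. These calls were close to the threshold. Leaving out any 1 of the 6 CpG libraries gave an adjusted p between 0.076 and 0.115 for Il12b, and Il12a lost its call without Tlr997 CpG replicate 2 or 3 or without Tlr9het CpG replicate 1 or 3 (adjusted p 0.10 to 0.12).

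Before stimulation the order of Il12b was the reverse. Unstimulated Tlr997 libraries had 1.10, 0.43 and 1.81 log2 CPM against -0.18, -0.77 and 0.04 in Tlr9het, with no overlap, but the difference of 1.42 (SE 0.28) had an adjusted p of 0.30. It was 1.07 (adjusted p = 0.15) without the library that stood apart, Tlr997 replicate 3, and 1.76 (adjusted p = 0.023) without Tlr997 replicate 2. None of the 4 members was called, and 0.0174% of all genes were called higher and 0% lower. Over all genes 1237 had an unadjusted p under 0.05. For Il6 the difference was -0.09 and for Ebi3 0.40 (adjusted p = 0.95 and 0.52). Without Tlr997 replicate 3 it was -0.54 for Il6, 0.13 for Ebi3 and -0.12 for Il12a (adjusted p = 0.53, 0.81 and 0.81).

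The difference of the CpG responses combines these values. For Il12b the response was smaller in Tlr997 than in Tlr9het cells by 2.56 on the log2 scale (SE 0.40, adjusted p = 0.0055, 95% CI -3.42 to -1.71), rank 6 from the bottom of 11494 genes. Without Tlr997 unstimulated replicate 3 the difference was -2.22 (adjusted p = 0.0031). For Ebi3 it was -0.72 (adjusted p = 0.25), for Il6 -0.54 (adjusted p = 0.67) and for Il12a -0.46 (adjusted p = 0.23), and these did not pass. Without that library Il6 had -0.09, Ebi3 -0.46 and Il12a -0.41 (adjusted p = 0.93, 0.27 and 0.24). Of all genes 0.853% were called lower and 0.687% higher, against 1 of 4 members lower and none higher. The per-kb balance between genes was compared with CpG as well. Il12b minus Ebi3 was 0.52 ± 0.21 (SD, n = 3) in Tlr9het and -0.31 ± 0.28 in Tlr997 cells, and Il12b minus Il12a was lower by 0.62 in Tlr997 cells. Neither of these pairs overlapped between genotypes, with an exact permutation p of 0.1, the smallest possible, so no difference could be called. Il12b minus Il6 was lower by 0.52 in Tlr997 cells, with overlapping libraries and an exact permutation p of 0.4. In bulk RNA, fewer cells that express a gene and less RNA per cell cannot be told apart.

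Markers of other cells were examined beside these results, since macrophages and dendritic cells also make these cytokines. Over 10 macrophage or monocyte markers, all found in the files, the summed level was 208 to 285 CPM in unstimulated and 146 to 185 in CpG-treated Tlr9het libraries, 155 to 379 and 99.6 to 232 in Tlr997 libraries, and 213 to 484 and 111 to 228 in Tlr779 libraries. The median sum was lower after stimulation in each genotype, 176 against 258, 154 against 239 and 130 against 263 CPM, while Il6, Il12b and Ebi3 were higher. The sum rests mostly on Lyz2 and Csf1r, and Emr1, Cd14, Mertk and Ly6c2 also had lower means after stimulation in each genotype. Fcgr1 and Marco did not follow it and had higher means in each genotype. C1qa and C1qb had higher means in Tlr9het and Tlr779 cells and lower means in Tlr997 cells. With CpG in Tlr9het cells the mean of Fcgr1 went from 0.72 to 1.49 log2 CPM, Marco from 0.81 to 1.53, C1qa from 3.77 to 3.79 and C1qb from 3.74 to 3.78, none of them called. Unstimulated Tlr997 replicate 3, which had the highest Il6, Il12b, Il23a and Ebi3 of its group, had its lowest macrophage sum, 155. The part of macrophages in the results was not tested. The 9 dendritic cell markers summed to 58.2 to 79.9 CPM in unstimulated and 123 to 170 in stimulated libraries, an increase carried mostly by Zbtb46 (means of 3.45 to 3.92 without and 5.67 to 5.78 with stimulation) and Bst2 (4.73 to 4.85 and 5.77 to 6.20). Flt3 also had higher means after stimulation, from 3.65 to 3.98, from 4.00 to 4.39 and from 4.17 to 4.73. Siglech, Itgax and Cd209a had lower means after stimulation. These values are given for Tlr9het, Tlr997 and Tlr779 cells in turn. Siglech went from 2.21 to 1.72, from 1.51 to 0.70 and from 0.99 to 0.27, and Itgax from 2.58 to 2.13, from 2.45 to 2.08 and from 2.02 to 1.89. Cd209a went from -1.04 to -4.52 in Tlr9het cells. The most restricted markers of the list were low, with Clec10a at the floor in 15, Cd209a in 8 and Clec9a in 7 of 18 libraries. The part of dendritic cells in the results was not tested. Of the B cell markers, Ms4a1, Cd79b and Cd22 were higher in Tlr997 than in Tlr9het cells with CpG (by 1.26, 1.04 and 0.58 on the log2 scale), and the summed level of the 6 was 2599 to 3160 CPM in Tlr997 against 1653 to 1721 in Tlr9het. Of 6 marginal zone B cell markers, Cr2, Dtx1 and S1pr3 were also higher in Tlr997 cells with CpG, by 0.81, 0.56 and 0.55 (adjusted p = 0.025, 0.0070 and 0.041). Of all genes, 1.25% were called higher there. Cd9 of the same list was lower in Tlr997 cells with CpG, at 6.20 against 6.64 log2 CPM, and was not called. Without CpG the differences of Cr2, Dtx1 and S1pr3 were -0.03, -0.07 and 0.07. The part of these shifts in the genotype difference was not tested. T cell markers were low, but their median sum with CpG was 23.0 against 8.6 CPM in Tlr9het and 10.7 against 4.8 in Tlr997 cells, and Cd8a was called higher in both (2.18 and 2.56). Cd8b1 was called too (3.40 and 2.12) but passed the filter only through CpG libraries. The part of T cells in the results was not tested. Neutrophil markers summed to 16.8 to 164 CPM over all libraries.

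Of 6 receptor chains of the family 5 were tested, and Il6ra, Il6st and Il27ra were called lower in all 3 responses. Of all genes, 28.2%, 26% and 23.6% were called lower in Tlr9het, Tlr997 and Tlr779 cells, and no direction is read for the chains as a group. Il6ra, the IL-6 binding chain, had log2 fold changes of -2.53 in Tlr9het, -2.43 in Tlr997 and -2.84 in Tlr779 cells (adjusted p = 3.9e-07, 6.7e-07 and 8.4e-06). Il6st, which encodes the shared chain gp130, had values of -0.84, -1.02 and -0.66, and Il27ra of -1.23, -0.79 and -1.22. Il12rb2, a chain of the IL-12 receptor, rose with CpG by 1.34 in Tlr9het and by 1.38 in Tlr997 cells, and its value with CL097 was 0.90 (adjusted p = 0.068). Il12rb1 was not called in any response, and no receptor chain was called between the genotypes.

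Of 7 other ligands that signal through gp130, 3 were tested, Lif, Osm and Clcf1. Osm rose by 1.67, 1.15 and 2.76 in Tlr9het, Tlr997 and Tlr779 cells, and Clcf1 by 0.94, 0.60 and 0.93. Lif was below 0 log2 CPM in all 9 unstimulated libraries and passed the filter only through stimulated ones, so that its place in the test carries no weight. Its means were -1.24, -1.47 and -1.93 without and 2.78, 3.06 and 2.00 with stimulation. Among the 8 signal transducers, Socs3, a feedback inhibitor of gp130 signaling, rose by 5.54, 4.27 and 5.28, and Stat3, the main transcription factor of that pathway, by 1.04, 0.76 and 1.44. Tyk2, a kinase of the IL-12 receptor, fell (-1.70, -1.40 and -1.02). Of the 8, 3 were called higher in each response, against 29.7%, 29.6% and 22.7% of all genes, and 4, 2 and 1 were called lower in Tlr9het, Tlr997 and Tlr779 cells, against 28.2%, 26% and 23.6%. Most of these counts are near or under the shares of all genes and are no result about the transducers as a group.

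**Figure D4:**
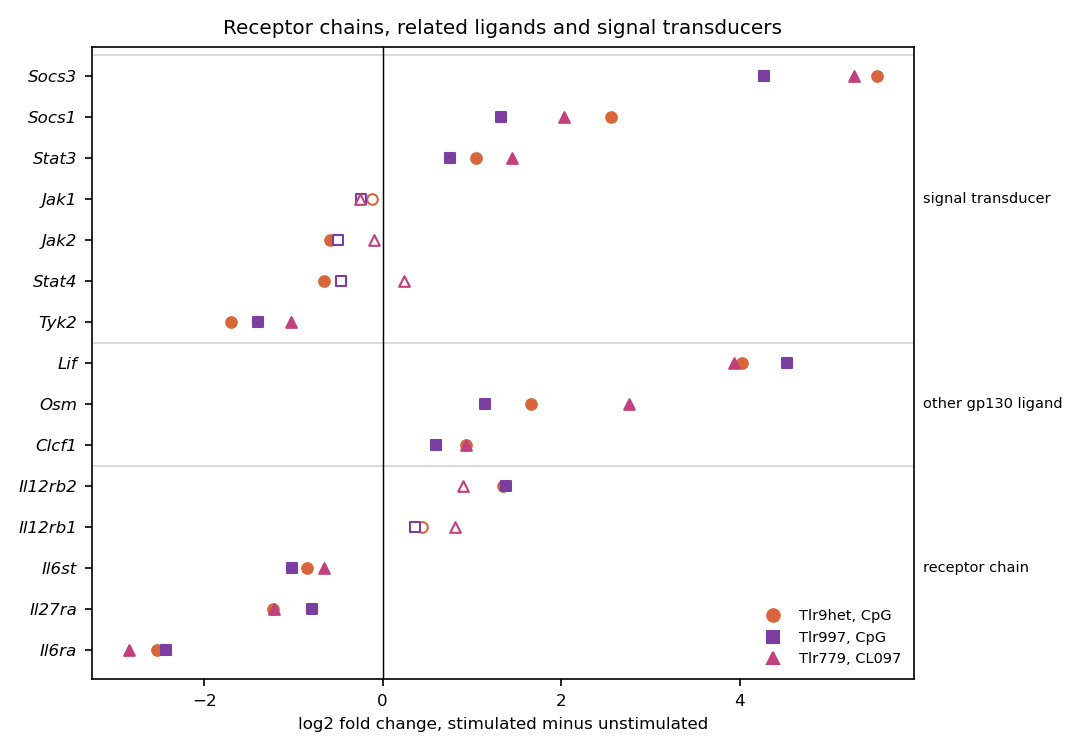
Log2 fold changes (stimulated minus unstimulated) of the receptor chains, other gp130 ligands and signal transducers reported here, in Tlr9het and Tlr997 cells with CpG and Tlr779 cells with CL097 (filled, called; open, not called). Il6ra lay between -2.84 and -2.43 and Socs3 between 4.27 and 5.54.

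Genes listed as regulators of cytokine transcription or mRNA turnover were also described. Whether they act on the members in these cells was not tested. Of 18 regulators of cytokine promoters 17 were tested, and 10, 8 and 9 were called higher and 3, 2 and 2 lower in Tlr9het, Tlr997 and Tlr779 cells. Of all genes tested, 29.7%, 29.6% and 22.7% were called higher and 28.2%, 26% and 23.6% lower. Batf, an AP-1 family partner of IRF proteins, rose by 5.46, 4.64 and 4.47, and Nfkbiz, a nuclear IkB protein that controls Il6 and Il12b in other cells, by 4.68, 3.99 and 4.81. Jun rose by 4.68, 3.77 and 3.72, and Sfpi1 (Spi1, encoding PU.1) fell (-1.13, -1.18 and -0.90). The list of 11 regulators of mRNA turnover also holds Tnfaip3, an NF-kB inhibitor gene, which its counts include. Of the 11, 5, 3 and 5 were called higher and 5, 4 and 1 lower. The 3 higher in Tlr997 and the 1 lower in Tlr779 cells are under the shares of all genes, so that no direction is read for the group. Tnfaip3, which encodes the NF-kB inhibitor A20, rose by 2.32, 1.71 and 1.58, Zc3h12c by 2.24, 1.62 and 2.23, and Zfp36l2, which promotes decay of AU-rich mRNAs, fell (-2.27, -2.41 and -1.92).

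**Figure D5:**
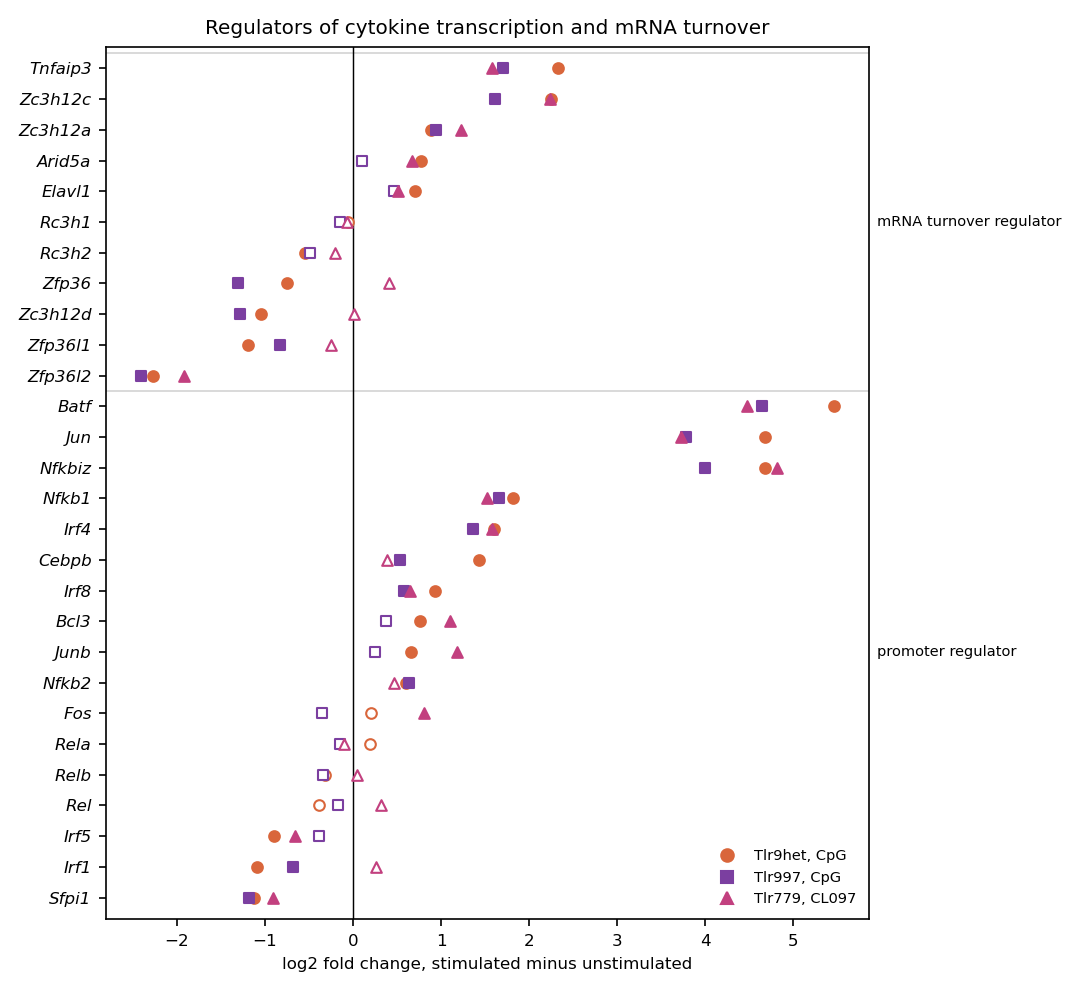
Log2 fold changes (stimulated minus unstimulated) of regulators of cytokine promoters and of mRNA turnover, with symbols as for the receptor chains. The NF-kB inhibitor gene Tnfaip3 is shown with the latter. Batf, Jun and Nfkbiz lay between 3.72 and 5.46 in all 3 responses, and Zfp36l2 lay between -2.41 and -1.92.

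Several of these genes were lower in Tlr997 than in Tlr9het cells with CpG, as Il12b was. Among the promoter regulators these were, against 1.47% of all genes, Jun (-0.78, adjusted p = 0.0097), Cebpb (-0.81, adjusted p = 0.026) and Batf (-0.52, adjusted p = 0.016), 3 of 17. In the list of turnover regulators they were Arid5a (-0.81, adjusted p = 0.00098), Zfp36 (-0.60, adjusted p = 0.0016) and the NF-kB inhibitor gene Tnfaip3 (-0.50, adjusted p = 0.00038), 3 of 11 with Tnfaip3 counted. Arid5a stabilizes Il6 mRNA, but Il6 was not called between the genotypes with CpG (-0.63, limma adjusted p = 0.41). The part of these regulators in the cytokine differences was not tested. Socs3 (-1.45, adjusted p = 0.0024), Socs1 (-0.82, adjusted p = 0.030), Osm (-0.73, adjusted p = 0.025), Tnf (-0.58, adjusted p = 0.0032) and Lta (-0.90, adjusted p = 0.011) were lower too. Without the filter on low values Batf, Cebpb, Jun, Lta, Osm and Socs1 lost their call (adjusted p 0.064 to 0.13). Of the 31 other cytokines 16 were tested in this experiment and 14 in Tlr779 cells. In the responses 9, 10 and 7 of them were called higher and 4 lower in each, the latter near the shares of all genes (28.2%, 26% and 23.6%, against 29.7%, 29.6% and 22.7% called higher), with Il10 up by 4.49, 4.22 and 5.19 and Tgfb3 down at -4.10, -4.51 and -3.06.

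The genes whose levels followed the members most closely over the 18 libraries are given as a description, since the 18 libraries fall into stimulated and unstimulated groups and are not independent points. Over 9363 genes, those most like Il6 were Ccl3, Ccl4 and Kdm6b (Pearson r 0.99, 0.98 and 0.98). Among those most like Il12b were Tnfsf15 and Ccl3 (both 0.98), and Ebi3 was most like Rcc1, Lyar and Bend3 (all 0.99). For Il12a the highest values were for Lef1, Rara and Ldlrad4 (0.80, 0.78 and 0.76). Between members, r was 0.98 for Il6 with Il12b, 0.95 for Ebi3 with each of these, and 0.85 to 0.86 for Il27 with the 3, whereas Il12a had r between -0.34 and -0.54 with these 4.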

How the data were processed

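The values were log2 CPM of 23420 genes in 18 libraries, deposited as 1 list per library. Per the labels and the study's methods, the authors trimmed reads (Trim Galore 0.6.5), aligned them to mm10 with STAR 2.6.1a, counted them with featureCounts (Subread 2.0.1), and quantile normalized and transformed them with voom in limma, so the deposited log2 values hold no counts and the depth per library is unknown. Quantile normalization gives all libraries nearly the same distribution, and sums of CPM were 991992 to 1004412. Stranded counting is not given in the sources used here. The floor assumed a voom offset of 0.5 counts and the most frequent low value, -5.05 log2 CPM. No 2 libraries were identical. In the CpG experiment 6614 genes lay below -4 log2 CPM in all 12 libraries, 6306 of them with 1 value for all libraries of a replicate number and 822 with values that differed between numbers, a pattern that removal of an offset per replicate number would leave. Tests without a replicate block do not count the degrees of freedom that such a step would take.

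Tests used limma 3.58.1 in R 4.3.3 with a variance trend, over 11494 genes (12 Tlr7-/- libraries) or 11082 genes (6 Tlr779 libraries), and were tested on simulated data. The treatment description gives 3 mice per genotype (the CpG control under the name Tlr9-/-), and cells of the same mouse may be in both groups of a genotype. Same-numbered libraries deviated together in Tlr9het (r 0.51, 0.29 and 0.51) and Tlr779 (0.25, 0.49 and 0.33) but not in all of Tlr997 (0.37, 0.083 and 0.025). The main tests did not pair libraries in any genotype, and the replicate number entered as a block only in an alternative fit of each comparison. A gap between same-numbered libraries is given for Tlr779 cells only. Levels per kb used the union of GENCODE M21 exons. Promoter sequences are from RefSeq. The members and gene lists were chosen with earlier results of these data known. Named genes were every member, the 3 genes most alike to each, the called genes with the largest and smallest change of a list, and all list genes called between genotypes, with Stat3, Il12rb1 and Il27ra added after their values were seen. A few genes that these rules name are not reported here. Members below the filter had exact permutation tests.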

Additional observations from a re-analysis of the deposited data

Results flagged for a closer look

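The CpG response of Il12b differed between genotypes in a test of the difference itself (limma), by -2.56 on the log2 scale (Tlr997 minus Tlr9het, adjusted p = 0.0055). The same test called smaller responses in Tlr997 cells for Arid5a (-0.67), Batf (-0.82), Lta (-1.20), Socs1 (-1.24), Tnf (-0.62), Tnfaip3 (-0.62) and Zfp36 (-0.55), and a difference of 0.51 for Irf5, which had a CpG response of -0.90 in Tlr9het cells and of -0.38 in Tlr997 cells. Without the filter on low values only Tnfaip3 of these kept its call. Of 21 alternatives each, the call was lost under 13 for Arid5a and for Zfp36, 12 for Socs1, 11 for Tnf, 10 for Lta, 9 for Irf5, 5 for Batf, 2 for Il12b and 1 for Tnfaip3. Groups of 3 were not tested for single deviant libraries.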

How the results depend on the processing

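Calls of Ebi3 in the 3 responses, and of Il6 and Il12b in both CpG responses, held under all alternatives. With CL097 Il12b could be fitted under 12 alternatives, against 15 for Il6 and Ebi3. Il12b passed the filter there only through its CL097 group and Il6 only with a CL097 library, so nothing is read from their calls. Without 1 CL097 library Il12b did not pass the filter, which left 2 members called. With a fold threshold of 1 on the log2 scale, genes called were 4060 (6650) with CpG in Tlr9het, 3768 (6388) in Tlr997, 74 (313) between genotypes with CpG, 46 (177) for the difference of responses and 2582 (5135) with CL097, the value in parentheses being that reported. Without CpG the 2 genes called became 0 without a filter and 0 with only the 6 libraries compared. Between genotypes with CpG they became 187 without a filter and 485 with array weights, and members called, 2, became 0 without a filter, 0 without the variance trend, 1 with all 18 libraries and 1 with the higher fold threshold. There Il12b lost its call under 9 of 22 alternatives (adjusted p 8.1e-05 to 0.30) and Il12a under 7 of 22 (0.0033 to 0.13). For the difference of responses genes called became 78 without a filter, 98 without the trend and 377 with array weights, and members called, 1, became 0 without a filter and 0 with all 18 libraries, where Il12b had adjusted p = 0.065 and 0.13. Il6 per kb averaged 2.66 over 18 libraries and 3.75 with the longest RefSeq transcript. The causes were not tested.

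Leaving out 1 library at a time gave 2 to 4 genes and 0 to 1 members called without CpG, 187 to 410 genes and 0 to 2 members with CpG, and 87 to 295 genes for the difference of responses, lowest without Tlr9het unstimulated replicate 1 and highest without Tlr997 unstimulated replicate 3. Il12a in Tlr9het cells with CpG ranged from -0.027 to 0.18, and without CpG the genotype difference ranged from -0.54 to 0.28 for Il6 and from -0.17 to 0.030 for Il12a, none called. With the replicate number as a block, the difference of responses called 328 genes and Il12b kept its call (-2.56, adjusted p = 0.0030), as did Il12b and Il12a with CpG (adjusted p = 0.012 and 0.0033). The block changed no other call of a member. With the block Jun was also called for the difference of responses (-0.91, adjusted p = 0.020). Il23a and Il27 lay near the floor of 3 counts, and depth per library is unknown.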
